A study of Mus musculus with 12 samples.

Results

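The lysyl oxidase family was described in abdominal aortas of mice with or without a deletion of Ccn2 aimed at smooth muscle cells (SMCs). The mice were infused with saline or angiotensin II (Ang II). The members were taken by gene symbol as Lox, Loxl1, Loxl2, Loxl3 and Loxl4, which were 5 of the 55092 features in the expression table. All 5 passed the filter on low values and were among the 14676 genes tested, so no member was left out.

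RNA-Seq of 1 library per mouse gave the level of each transcript in 12 male mice, 3 in each of 4 groups, at day 7 of infusion. Every mouse carried floxed Ccn2 alleles and received 5 doses of tamoxifen at 8 weeks of age, followed by a washout of 2 weeks. CCN2SMC∆ mice also carried the Myh11-Cre-ERT2 transgene, in which the smooth muscle myosin promoter drives a tamoxifen-activated recombinase, whereas CCN2fl/fl mice carried no Cre. Deletion was therefore aimed at SMCs, and cells of the same aortas in which that promoter is silent keep the gene. The groups are named as in the sample labels. CFS stands for CCN2fl/fl with saline pumps, CSS for CCN2SMC∆ with saline pumps, CFA for CCN2fl/fl with Ang II pumps at 500 ng/kg/min, and CSA for CCN2SMC∆ with the same Ang II dose. The study's discussion speaks of C57BL/6 mice, while its breeding methods name no strain background. An effect of the Cre transgene itself cannot be told apart from that of the deletion in these groups. Values are FPKM, a fragment count scaled by transcript length and library size, so levels of different genes can be set side by side.

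Lysyl oxidases are secreted copper-dependent amine oxidases. They oxidize lysine residues of collagens and tropoelastin to reactive aldehydes, which then condense into the covalent cross-links that give the arterial wall its tensile strength and recoil. Lox and Loxl1 are made with long propeptides that are removed outside the cell, and Loxl2, Loxl3 and Loxl4 instead carry scavenger receptor cysteine-rich domains ahead of the shared catalytic domain. Mice without Lox die around birth with aortic aneurysms and broken elastic lamellae, and inhibition of the enzymes is a classical way to weaken the aorta in animals.

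One library stood apart before any comparison. In the CSA mouse numbered 03, deviations from the rest of its group followed the GC content of the transcript. Relative to the mean of CSA mice 01 and 02, the median gene of mouse 03 lay 0.64 higher on the log2 scale in the tenth of tested genes with the lowest GC content (18.1% to 41.1%), and at −1.25 in the tenth with the highest (57.8% to 87.5%). The median deviation from the 12-mouse mean differed by 1.76 between these extremes in mouse 03 and by −0.356 to 0.074 in the other 11 mice. Lox transcripts have a GC content of 43.9%, Loxl1 61.0%, Loxl2 51.7%, Loxl3 53.4% and Loxl4 56.6%. Fold changes of the members that rest on mouse 03 are therefore given with and without it, and also after a correction for GC content that was added after the data were seen. The cause of the trend was not tested.

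The remaining facts of the libraries are brief. Depth, taken as the sum of recovered fragments, ranged from 14558578 in CSA mouse 03 to 23107799 in CFA mouse 71. The targeted gene ranged over 480.1 to 1108 FPKM in CFS, 436 to 640 in CSS, 564 to 1105 in CFA and 255 to 399 in CSA. Ccn2 was lower in CSA than in CFA (log2 difference −1.41, adjusted p = 0.00622 by limma), and CSS did not pass the test against CFS (−0.40, limma adjusted p = 1.0). The 2 saline groups overlapped, so these whole-tissue levels do not show a loss of Ccn2 in CSS. The aortic label was met by smooth muscle markers in all 12 libraries, with no marker of the list at 0 throughout a group. The summed level of 9 smooth muscle markers was 8286 to 10406 FPKM in CFS, 7784 to 8828 in CSS, 5605 to 8498 in CFA and 804 to 963 in CSA. The summed level of 10 macrophage markers was 209 to 236 in CFS, 225 to 277 in CSS, 210.1 to 464 in CFA and 1183 to 1705 in CSA. The sum of 8 neutrophil markers was 8.71 to 21.0, 7.99 to 9.57, 13.8 to 33.05 and 533 to 581 in the same order of groups. The 8 fibroblast markers summed to 1288 to 1598, 1016 to 1144, 1169 to 1268 and 1068 to 1553, and the 8 endothelial markers to 139.7 to 483, 389.5 to 529, 265 to 537 and 155 to 194. The 7 T cell markers summed to 0.367 to 1.41, 1.299 to 3.0, 0.811 to 2.61 and 21.95 to 30.6, and the 5 erythrocyte markers to 134 to 1248, 420.1 to 515, 767 to 2496 and 63.2 to 621. Between CSA and CFA, where 8.95% of all genes were called higher and 8.27% lower (adjusted p under 0.05 in limma and a log2 difference beyond 1.5), 9 of 9 muscle markers and 3 of 8 endothelial markers were called lower. The endothelial differences ran from −2.36 to 0.92 and none passed as higher, though 1 marker was called higher in CSA against CSS. Of 8 fibroblast markers 2 were called lower between CSA and CFA, while 4 passed the adjusted p as lower and 1 as higher. The 5 erythrocyte markers were called lower with mouse 03 and 0 of them without it. Cartilage markers (5) summed to 76.4 to 523, 352 to 546, 119 to 483 and 38.9 to 57.98, with 1 of 4 tested called lower. That marker lay at −4.85, while the median of the 4 was 0.91 and 1 passed the adjusted p as higher. With the GC correction, 1 cartilage marker was called higher and 2 passed as higher. Adipocyte markers (7) summed to 714 to 2909, 181 to 840, 339 to 967 and 159 to 342, with 2 of 7 called lower. Of 10 macrophage markers 7 were called higher, and Mertk passed as lower (−0.73, limma adjusted p = 0.0185). Another marker of that list lay further down, at −1.105, and did not pass. Without mouse 03, and also with the GC correction, 2 of the list passed as lower. Of the neutrophil markers 4 were called higher, leaving out 3 that reached the filter on low values only through the CSA mice, as all 7 T cell markers did. Mitochondrially encoded transcripts summed to 35211 to 38646, 21814 to 24011, 30773 to 33274 and 11893 to 24814 FPKM, with mouse 03 the highest of CSA. The part of these markers in the levels of the lysyl oxidases was not tested, and in bulk tissue fewer cells of a type and less RNA per cell cannot be told apart.

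The family members lie on different chromosomes, in GRCm38 coordinates of the GENCODE M21 annotation, which is the build named mm10 in the submitters' processing notes. Loxl1 (ENSMUSG00000032334) lies on chromosome 9 from 58287738 to 58313186 on the minus strand. Loxl2 (ENSMUSG00000034205) occupies chromosome 14 from 69609068 to 69695834 on the plus strand. Loxl3 (ENSMUSG00000000693) occupies chromosome 6 from 83034173 to 83052562 on the plus strand. Loxl4 (ENSMUSG00000025185) occupies chromosome 19 from 42593982 to 42612813 on the minus strand. The coding sequences hold 411 codons in Lox, 607 in Loxl1, 776 in Loxl2, 754 in Loxl3 and 758 in Loxl4, so the 3 members with scavenger receptor domains are the longest.

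The stretch of the catalytic domain that binds copper is shown because it holds the histidines that the copper of every member depends on. It is 33 bases long, lies in coding sequence, and spans an exon junction in every member. It is printed 5′ to 3′ on the coding strand from the GENCODE M21 transcripts, with the 4 histidine codons in capitals, for the 3 members with scavenger receptor domains.
Loxl2: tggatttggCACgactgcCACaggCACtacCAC
Loxl3: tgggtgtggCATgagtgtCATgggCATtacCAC
Loxl4: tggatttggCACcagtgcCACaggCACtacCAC
The Loxl2 stretch lies at chr14:69682316-69689037 on the plus strand, from exon 10 of 14 into the next. For Loxl3 the position is chr6:83049995-83050125 on the plus strand, from exon 10 of 14, and for Loxl4 chr19:42598807-42599899 on the minus strand, from exon 11 of 15. Loxl2 and Loxl4 matched at 31 of 33 bases and Loxl3 matched each of them at 25. Loxl1 matched Loxl3 at 25 bases, Loxl2 at 22, Loxl4 at 21 and Lox at 32. Across whole transcripts, the longest identical run between any pair of members was 32 bases, between Lox and Loxl1, against reads of 150 bases. Of other overlaps, 11.6% of the exonic bases of Loxl3 are shared with Htra2 on the opposite strand (mean 8.34 FPKM). Of Loxl2, 5.57% are shared with an antisense gene at a mean of 0.0157 FPKM. Use of strand in the counting was not stated, so reads in those bases cannot be assigned to a strand.

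**Figure D1:**
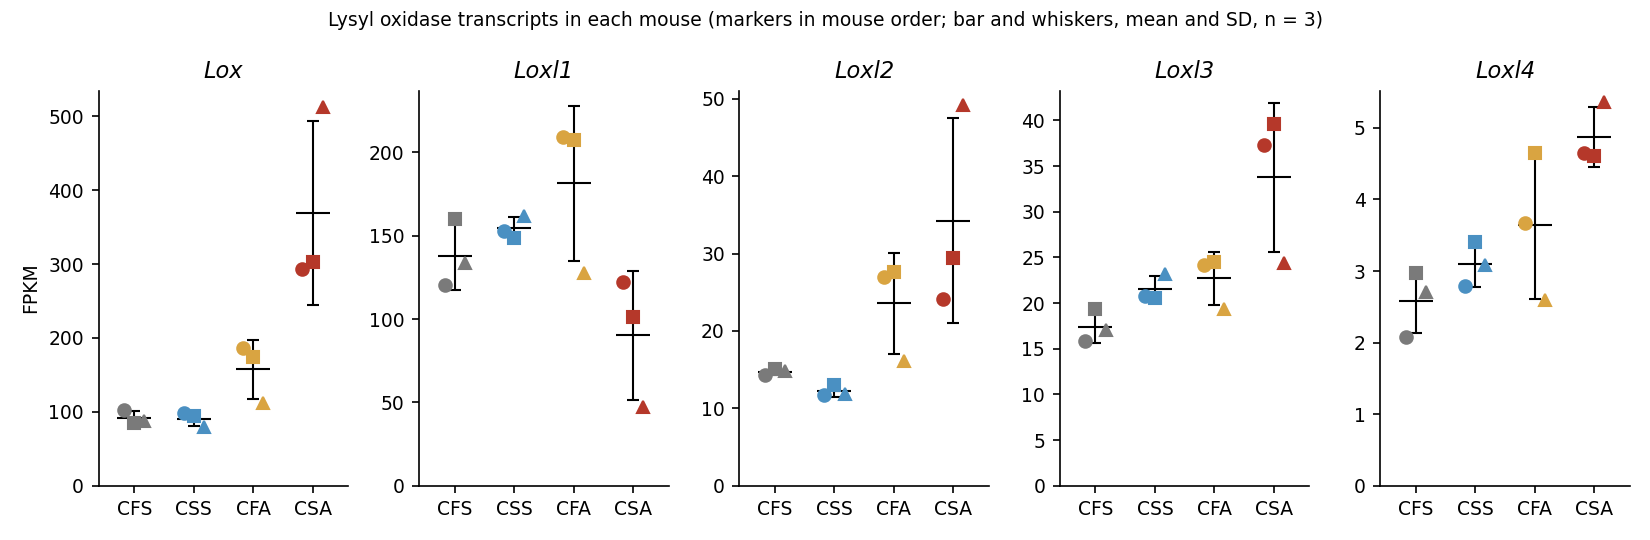
FPKM (linear axes starting at 0, a separate scale per gene) of the 5 lysyl oxidase genes in each mouse of the 4 groups, with circles, squares and triangles in order of mouse number, a bar for the mean and whiskers for the SD of 3 mice. Lox is highest in all 3 CSA mice (293 to 513 FPKM), where Loxl1 is below all 3 CFA mice. The third CSA symbol (mouse 03) lies farthest from the mean of the 3 CSA mice in every panel.

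Lox, the prototype of the family and the enzyme on which elastic fibres of the aorta depend, was measured from 7214 to 37574 fragments per mouse. The gene (ENSMUSG00000024529) lies on chromosome 18 from 52516067 to 52529867 on the minus strand. Its level was 103, 84.5 and 87.5 FPKM in the CFS mice (91.7 ± 9.96, SD, n = 3) and 98.0, 94.1 and 79.0 in the CSS mice (90.4 ± 10.1). With Ang II it was 187, 174 and 112 in CFA (158 ± 39.8) and 293, 302 and 513 in CSA (369 ± 125). The saline groups overlapped, CFA lay above both, and CSA lay above every other mouse. Lox rose 2.32-fold in CSA against CFA, a log2 difference of 1.21 (SE 0.25, 95% interval 0.67 to 1.75, limma adjusted p = 0.00235). Against CSS the rise was 3.96-fold (log2 difference 1.99, SE 0.25, limma adjusted p = 6.74e-05). In CCN2fl/fl mice, Ang II against saline gave a log2 difference of 0.75 (SE 0.25, limma adjusted p = 0.330), which did not pass although the groups did not overlap, and genotype under saline gave −0.02 (SE 0.25, limma adjusted p = 1.0). Without CSA mouse 03, the difference between CSA and CFA was 0.95 (limma adjusted p = 0.0031), and with the GC correction it was 1.13 (limma adjusted p = 0.00043). Against CSS these values were 1.72 (limma adjusted p = 5.46e-05) and 1.88 (9.24e-06). Lox in mouse 03 exceeded the mean of the other CSA mice by 0.79, where tested genes within 1 percentage point of its GC content had a median of 0.46.

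Loxl1, which binds fibulin-5 and acts at sites of elastic fibre assembly, went the other way. Its level was 120.3, 160.3 and 133.5 FPKM in CFS (138 ± 20.4), 153, 149 and 162 in CSS (154 ± 6.77), 209, 208 and 128 in CFA (182 ± 46.6), and 122, 101.4 and 47.1 in CSA (90.1 ± 38.7). Every CSA mouse lay below every CFA and CSS mouse, while CSA mouse 01 lay above the lowest CFS mouse. Loxl1 fell 2.12-fold in CSA against CFA (log2 difference −1.08, SE 0.32, 95% interval −1.78 to −0.38, limma adjusted p = 0.0187). Against CSS the log2 difference was −0.88 (SE 0.32, limma adjusted p = 0.0406). Ang II in CCN2fl/fl mice gave 0.37 (limma adjusted p = 0.839) and genotype under saline 0.17 (limma adjusted p = 1.0), neither past the test. The fall rested in part on mouse 03. Without it the difference from CFA was −0.67 (limma adjusted p = 0.024) and that from CSS was −0.47 (limma adjusted p = 0.085), and with the GC correction they were −0.60 (0.020) and −0.31 (0.18). Loxl1 in mouse 03 lay at −1.24 relative to its group, close to the median of −1.35 over 341 genes of like GC content. The pass against CFA was also lost without CFA mouse 71 (limma adjusted p = 0.0685) or 72 (0.0621), and that against CSS without CSS mouse 54 (0.0873), 55 (0.0791) or 56 (0.101).

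Loxl2, which cross-links type IV collagen of basement membranes, was 14.3, 15.03 and 14.8 FPKM in CFS (14.7 ± 0.391) and 11.7, 13.03 and 11.9 in CSS (12.2 ± 0.725). It was 27.0, 27.6 and 16.05 in CFA (23.6 ± 6.51) and 24.1, 29.4 and 49.2 in CSA (34.2 ± 13.2). All Ang II mice lay above all saline mice, the saline groups did not overlap with CSS the lower, and CSA overlapped CFA. Loxl2 rose 2.67-fold in CSA against CSS (log2 difference 1.41, SE 0.26, limma adjusted p = 0.00104). Against CFA the difference of 0.51 (SE 0.26, 95% interval −0.06 to 1.08) did not pass (limma adjusted p = 0.141), nor did Ang II in CCN2fl/fl mice (0.64, limma adjusted p = 0.465) or genotype under saline (−0.27, limma adjusted p = 1.0). Without CSA mouse 03 the differences were 0.22 from CFA (limma adjusted p = 0.41) and 1.12 from CSS (0.0011), and with the GC correction 0.56 (0.132) and 1.47 (0.00124). Without CSA mouse 01 the difference from CFA was 0.73 (limma adjusted p = 0.0476). Loxl2 in mouse 03 exceeded the mean of the other CSA mice by 0.88, where genes of like GC content had a median of −0.21.

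Loxl3, needed for cartilage and palate formation in the embryo, was 15.8, 19.3 and 17.03 FPKM in CFS (17.4 ± 1.76) and 20.8, 20.6 and 23.2 in CSS (21.5 ± 1.45). It was 24.2, 24.5 and 19.4 in CFA (22.7 ± 2.89) and 37.3, 39.6 and 24.4 in CSA (33.8 ± 8.18). CSA mice 01 and 02 lay above all others, and mouse 03 lay just below the highest CFA mouse. Relative to the mean of the other CSA mice, mouse 03 lay at −0.65, where genes of like GC content had a median of −0.43. Loxl3 rose 1.46-fold in CSA against CFA (log2 difference 0.55, SE 0.18, 95% interval 0.15 to 0.95, limma adjusted p = 0.0333) and 1.53-fold against CSS (0.62, SE 0.18, limma adjusted p = 0.0168). Ang II in CCN2fl/fl mice gave 0.38 (limma adjusted p = 0.568) and genotype under saline 0.31 (0.918), with no overlap of the groups in either and no pass. Without CSA mouse 03 the differences were 0.77 from CFA (limma adjusted p = 0.00063) and 0.84 from CSS (0.000295), and with the GC correction they were 0.64 (0.00146) and 0.73 (0.000494). The pass against CFA was lost without CFA mouse 71 (limma adjusted p = 0.0554), CFA mouse 74 (0.123), CSA mouse 01 (0.0987) or CSA mouse 02 (0.114), and that against CSS without CSS mouse 54 (0.0531), CSS mouse 55 (0.0533), CSA mouse 01 (0.0567) or CSA mouse 02 (0.0651).

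Loxl4 had the lowest level of the family in every group and was measured from 162 to 416 fragments per mouse. It was 2.08, 2.97 and 2.71 FPKM in CFS (2.59 ± 0.457), 2.78, 3.41 and 3.09 in CSS (3.09 ± 0.311), 3.67, 4.65 and 2.60 in CFA (3.64 ± 1.03), and 4.65, 4.61 and 5.36 in CSA (4.87 ± 0.421). CSA lay above both saline groups and overlapped CFA through CFA mouse 72. Loxl4 rose 1.56-fold in CSA against CSS (log2 difference 0.64, SE 0.21, limma adjusted p = 0.0274). It did not pass against CFA (0.45, 95% interval −0.02 to 0.91, limma adjusted p = 0.115), nor for Ang II in CCN2fl/fl mice (0.45, limma adjusted p = 0.542) or genotype under saline (0.26, limma adjusted p = 1.0). The pass against CSS was lost without CSA mouse 03 (0.57, limma adjusted p = 0.0572), CSS mouse 54 (0.0918) or CSS mouse 56 (0.0667), and the difference from CFA passed without CFA mouse 72 (0.64, limma adjusted p = 0.0332). The difference from CFA without CSA mouse 03 was 0.38 (limma adjusted p = 0.199). Loxl4 in that mouse exceeded the mean of the other CSA mice by 0.21, where genes of like GC content had a median of −0.82. With the GC correction the differences were larger, 0.69 from CFA (limma adjusted p = 0.0658) and 0.93 from CSS (0.0169), but with that correction and without mouse 03 they were 0.34 (0.241) and 0.57 (0.0523).

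**Figure D2:**
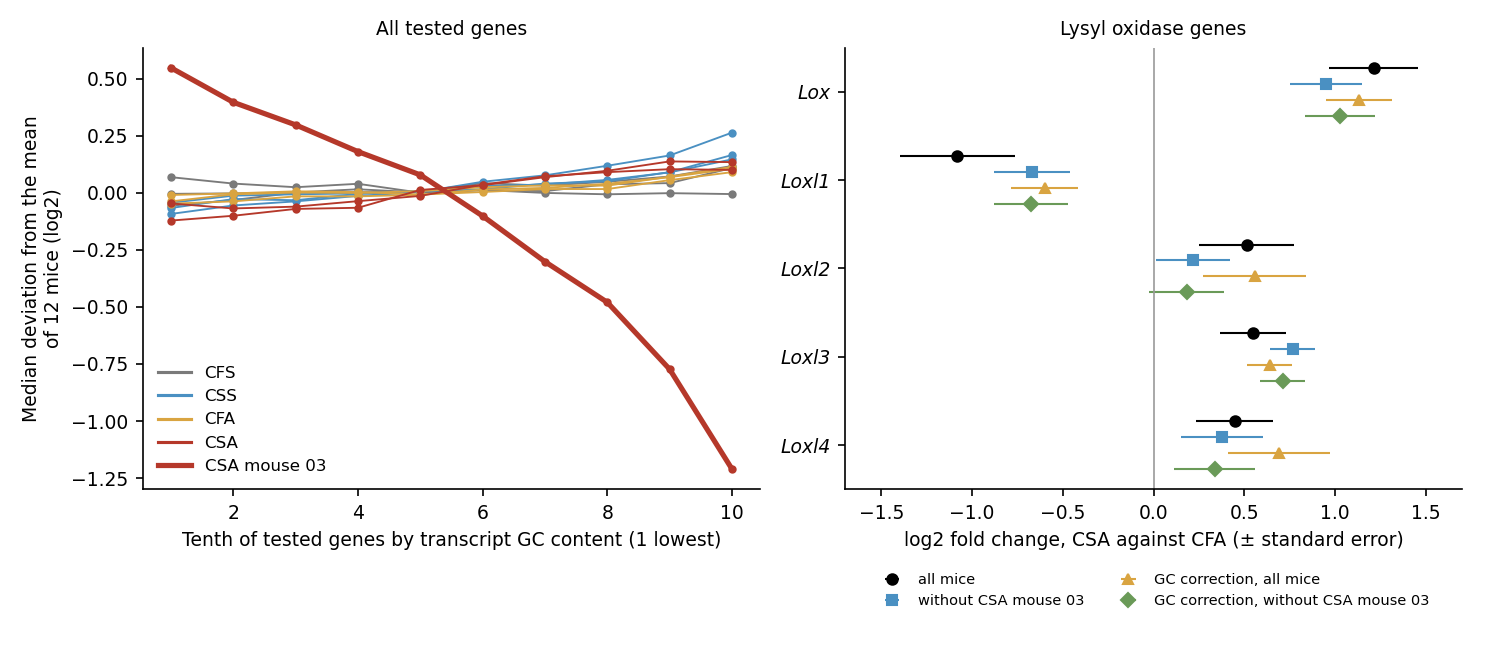
Left, the median deviation of tested genes from the mean of the 12 mice (log2) in 10 equal bins by transcript GC content, 1 line per mouse coloured by group, with CSA mouse 03 drawn thick. Right, log2 fold change of CSA against CFA with its standard error for each lysyl oxidase gene, fitted with all mice, without CSA mouse 03, with the GC correction, and with both. Mouse 03 alone slopes steeply, and Loxl1 moves from −1.08 to −0.67 without it while Lox stays between 0.95 and 1.21.

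The comparisons can be summarized over the family. Under Ang II the genotypes are compared by CSA against CFA, which includes any difference already present under saline. There, Lox and Loxl3 rose and Loxl1 fell, so 3 of 5 members passed an adjusted p under 0.05 in limma, as did 40.7% of all genes tested. The passes of Loxl1 (limma adjusted p = 0.0931) and Loxl3 (0.135) were lost with only the groups compared. That of Loxl3 was also lost with no filter on low values (0.0597). None of the 5 also exceeded the study's limit of 1.5 on the log2 scale (called genes), which 17.2% of all genes did, and 3 had an unadjusted p under 0.05, against 49.0% of all genes. The groups did not overlap for 2 members (Lox and Loxl1) and for 48.5% of all genes. The share of members that changed was thus not far from that of genes at large, and the median log2 difference was 0.51 over the family and −0.04 over all genes tested.

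For Ang II in CCN2SMC∆ mice (CSA against CSS), 4 members rose and Loxl1 fell. All 5 passed the adjusted p, against 46.2% of all genes, 1 member (Lox) was called, against 20.3%, and the groups did not overlap for any of the 5, against 55.4%. Some of these passes were lost under other fits. With only the groups compared, Loxl1 (limma adjusted p = 0.0961) and Loxl3 (0.0635) did not pass, and with no filter on low values Loxl1 (0.0678) and Loxl4 (0.0518) did not. For Ang II in CCN2fl/fl mice (CFA against CFS) all 5 differences were positive, from 0.37 to 0.75, and 0 of 5 passed the limma test, where 0.0341% of all genes passed and 0.0273% were called. Lox and Loxl2 had an unadjusted p under 0.05, as did 9.42% of all genes, and 3 members did not overlap, against 20.2% of all genes. Under array weights in limma, which lower the weight of libraries far from their group, Lox (0.86, adjusted p = 0.0219), Loxl2 (0.76, 0.0331) and Loxl3 (0.45, 0.0474) passed, and 3.41% of all genes passed in that fit. In this group CFA mouse 74 was the lowest of the 3 for every member. For genotype under saline (CSS against CFS) differences ran from −0.27 to 0.31, and 0 of 5 passed the limma test or an unadjusted p of 0.05. Of all genes, 0.0204% passed the limma test, 0.0136% were called and 6.3% had such an unadjusted p. Loxl2 and Loxl3 did not overlap there, against 20.4% of all genes. Since the CSA mice enter both contrasts in which members passed, and CFS and CSS each enter others, these counts are not independent of each other.

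The interaction asks whether the genotype difference under Ang II exceeded that under saline. For Lox it was 1.23 on the log2 scale (SE 0.35, 95% interval 0.47 to 2.0, limma adjusted p = 0.0227), the only member to pass, where 26.4% of all genes passed and 15.2% were called. With 0 of 5 members called by limma, 2 (Lox and Loxl1) had an unadjusted p under 0.05, against 37.7% of all genes. The Lox interaction without CSA mouse 03 was 0.97 (limma adjusted p = 0.0186), and with the GC correction 1.11 (0.00732). It missed the threshold without CFS mouse 68 (limma adjusted p = 0.0573) or CSS mouse 56 (0.0599). For Loxl1 it was −1.25 (SE 0.45, limma adjusted p = 0.0625), which passed without CFA mouse 74 (0.0386), CSA mouse 01 (0.0252) or CSA mouse 03 (−0.84, 0.0421), and under array weights (−1.06, 0.00378). With the GC correction it was −0.66 and did not pass (limma adjusted p = 0.0766). Values for the other members were 0.78 for Loxl2 (limma adjusted p = 0.148), 0.24 for Loxl3 (0.541) and 0.19 for Loxl4 (0.688). These were 0.48, 0.46 and 0.12 without CSA mouse 03, and with the GC correction 0.83, 0.36 and 0.50, and none passed.

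**Figure D3:**
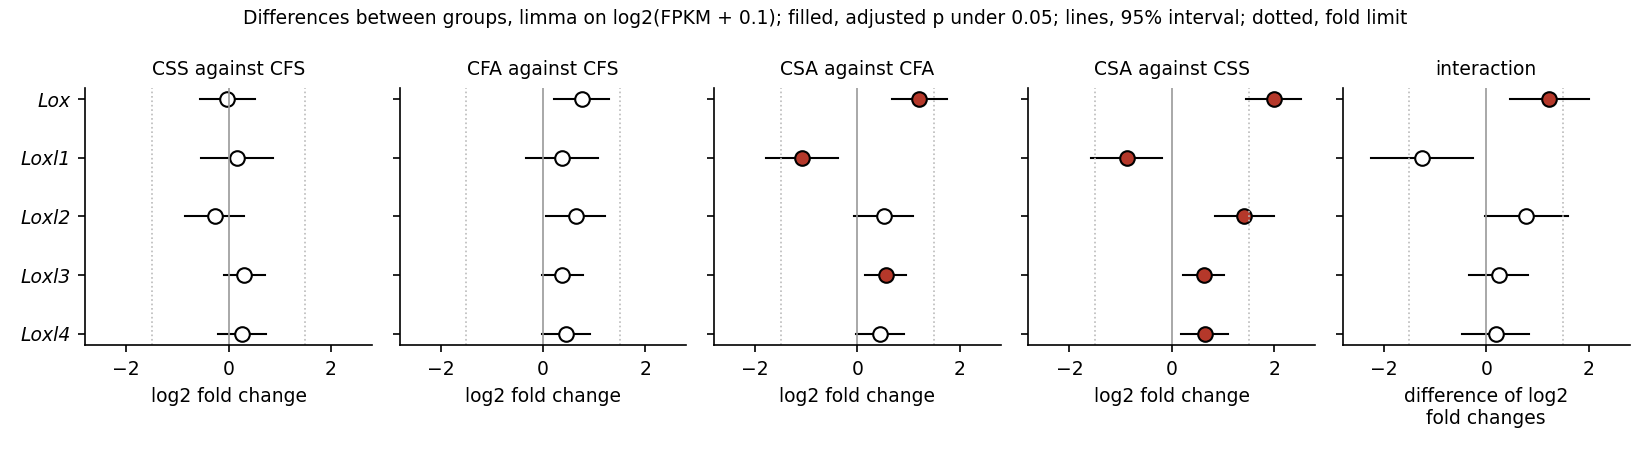
Log2 fold changes (points) with 95% intervals (lines) of the 5 genes in the 4 comparisons, and the difference of log2 fold changes for the interaction, from limma on log2(FPKM + 0.1). Filled points have an adjusted p under 0.05 and dotted lines mark the fold limit of 1.5, which is exceeded by a filled point only for Lox in CSA against CSS (1.99).

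Lox and Loxl1 changed places in the order of levels in CSA. In CFS and in CSS it was Loxl1, Lox, Loxl3, Loxl2 and Loxl4 from high to low, and no neighbours in the order overlapped. In CFA the ranges of Loxl1 and Lox overlapped, as did those of Loxl2 and Loxl3. In CSA the order was Lox, Loxl1, Loxl2, Loxl3 and Loxl4, with Lox above Loxl1 in every mouse without overlap, while Loxl1 overlapped Loxl2 and Loxl2 overlapped Loxl3. Both overlaps and the place of Loxl2 above Loxl3 rested on mouse 03. In CSA mice 01 and 02 the order was Lox, Loxl1, Loxl3, Loxl2 and Loxl4, with means of 298, 112, 38.5, 26.7 and 4.63 FPKM and no overlap of neighbours.

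The composition of the family showed the same exchange as shares. Of the summed FPKM of the 5 genes, Lox made up 34.8% ± 5.22 (SD, n = 3) in CFS, 32.1% ± 3.28 in CSS, 40.5% ± 0.858 in CFA and 68.2% ± 10.6 in CSA, where single mice ranged from 60.9% to 80.3%. Loxl1 made up 52.0% ± 4.88, 54.8% ± 2.75, 46.6% ± 0.722 and 17.99% ± 9.43 in the same order, from 7.37% to 25.4% in the CSA mice. The remaining 3 genes held small shares. The mean share of Loxl2 ran from 4.34% to 6.29% over the groups, that of Loxl3 from 5.98% to 7.65% and that of Loxl4 from 0.924% to 1.10%. The share of Loxl2 was lower in the CSS mice (4.09% to 4.66%) than in any CFS (5.33% to 5.78%) or CFA mouse (5.77% to 6.29%). That of Loxl3 was higher in CSS (7.27% to 8.32%) than in any CFS (6.20% to 6.84%) or CFA mouse (5.37% to 6.96%). The sum itself was 264 ± 15.3 FPKM in CFS, 282 ± 3.79 in CSS, 389 ± 96.4 in CFA and 532 ± 92.5 in CSA. Single mice of CFA had sums of 451, 439 and 278 and those of CSA 481, 477 and 639. The mean share of Lox in CSA without mouse 03 was 62.1%.

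**Figure D4:**
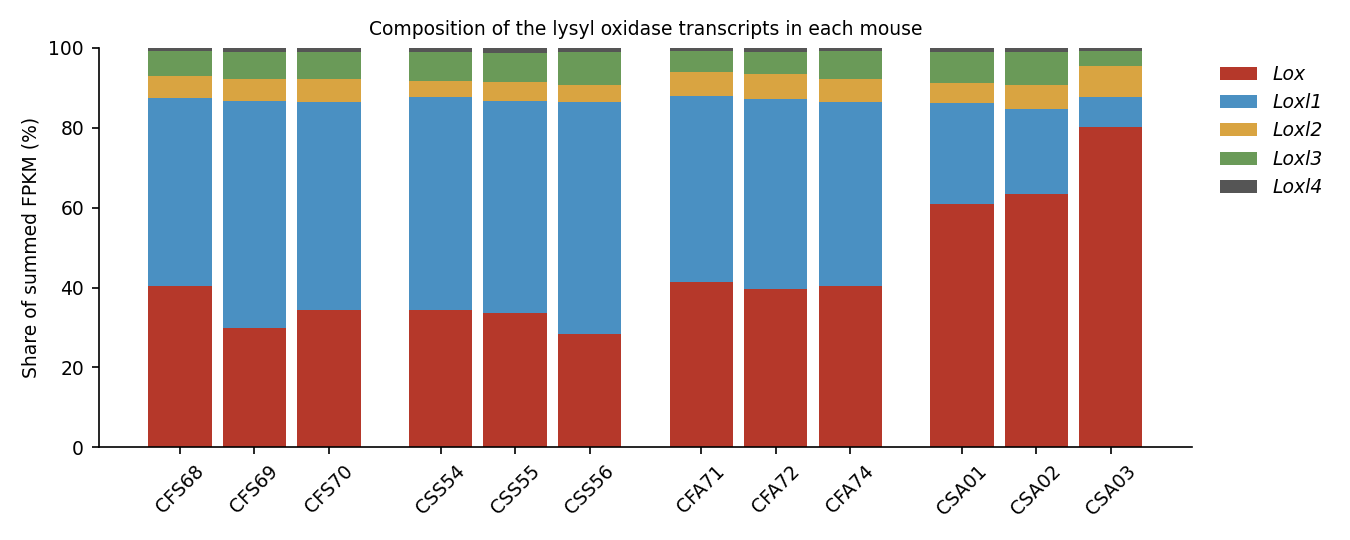
Share of each of the 5 genes in their summed FPKM (vertical axis, %, from 0 to 100), with 1 stacked bar for each of the 12 mice arranged by group. Lox takes 60.9% to 80.3% of the bar in CSA mice and 28.3% to 41.4% in all others.

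Ratios within a library, which do not depend on the scaling between libraries, set the enzymes against their substrates. Elastin (Eln), the core protein of elastic fibres, was 499, 587 and 579 FPKM in CFS, 803, 827 and 851 in CSS, 2263, 1618 and 774 in CFA, and 970.4, 865 and 338 in CSA. Its difference between CSA and CFA was −1.11 and did not pass (limma adjusted p = 0.0558). It was −0.63 without CSA mouse 03 (limma adjusted p = 0.161), and with the GC correction −0.74 (0.0687). The log2 ratio of Lox to Eln was −2.60 ± 0.28 in CFS, −3.20 ± 0.21 in CSS, −3.20 ± 0.41 in CFA and −0.88 ± 1.29 in CSA. CSA exceeded CFA by 2.32 with no overlap (1.58 without mouse 03). Loxl1 to Eln instead lay at −3.00 ± 0.42 in CFA and −2.97 ± 0.13 in CSA, a difference of 0.02 with overlap, after −2.01 ± 0.13 in CFS and −2.42 ± 0.05 in CSS. The ratios of Loxl2, Loxl3 and Loxl4 to Eln were also higher in CSA than in CFA without overlap, by 1.62, 1.66 and 1.55 (0.84, 1.39 and 1.004 without mouse 03), so that Loxl1 was the one member whose ratio to elastin overlapped between the Ang II groups. In CFS these ratios had means of −5.23, −4.99 and −7.70, against −5.94, −5.96 and −8.60 in CFA. CSA mouse 01 lay at −5.33 for Loxl2, below all CFS mice, and at −7.67 for Loxl4, within their range.

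Against the fibrillar collagen Col1a1 the pattern differed, with overlap between CFA and CSA for Lox and none for Loxl1. Loxl2, Loxl3 and Loxl4 to Col1a1 also overlapped, with differences of −0.45, −0.42 and −0.52. Without mouse 03 that of Loxl4 was −0.63 and the groups did not overlap. The log2 ratio of Lox to Col1a1, the main chain of type I collagen, was −3.22 ± 0.38 in CFA and −2.98 ± 0.56 in CSA, a difference of 0.25 with overlap that was −0.06 without mouse 03. The ratio of Loxl1 to Col1a1 was −3.02 ± 0.40 in CFA and −5.07 ± 0.64 in CSA, lower by 2.05 on the log2 scale without overlap, and a difference of −1.68 remained without mouse 03. Loxl2 to Col4a1, its basement membrane substrate, was −3.68 ± 0.15 in CFA and −2.29 ± 0.94 in CSA, a difference of 1.39 without overlap (0.87 without mouse 03). Over Col4a1, Lox (2.09), Loxl3 (1.43) and Loxl4 (1.33) were likewise higher in CSA without overlap, while Loxl1 overlapped (−0.20). Lox to Loxl1, a ratio chosen after the values were seen, was −0.58 ± 0.35 in CFS, −0.78 ± 0.22 in CSS, −0.20 ± 0.05 in CFA and 2.09 ± 1.18 in CSA, where it exceeded CFA by 2.29 (1.62 without mouse 03). Of 22 ratios compared between CSA and CFA, 11 did not overlap, including those named so. By level, 48.5% of all genes tested did not overlap between the same groups, so that share of ratios was near that of genes at large. For the 11 ratios the two-sided exact permutation p was 0.1, the smallest that 3 against 3 mice can give. It was 0.2 after Benjamini-Hochberg adjustment over the 22.

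**Figure D5:**
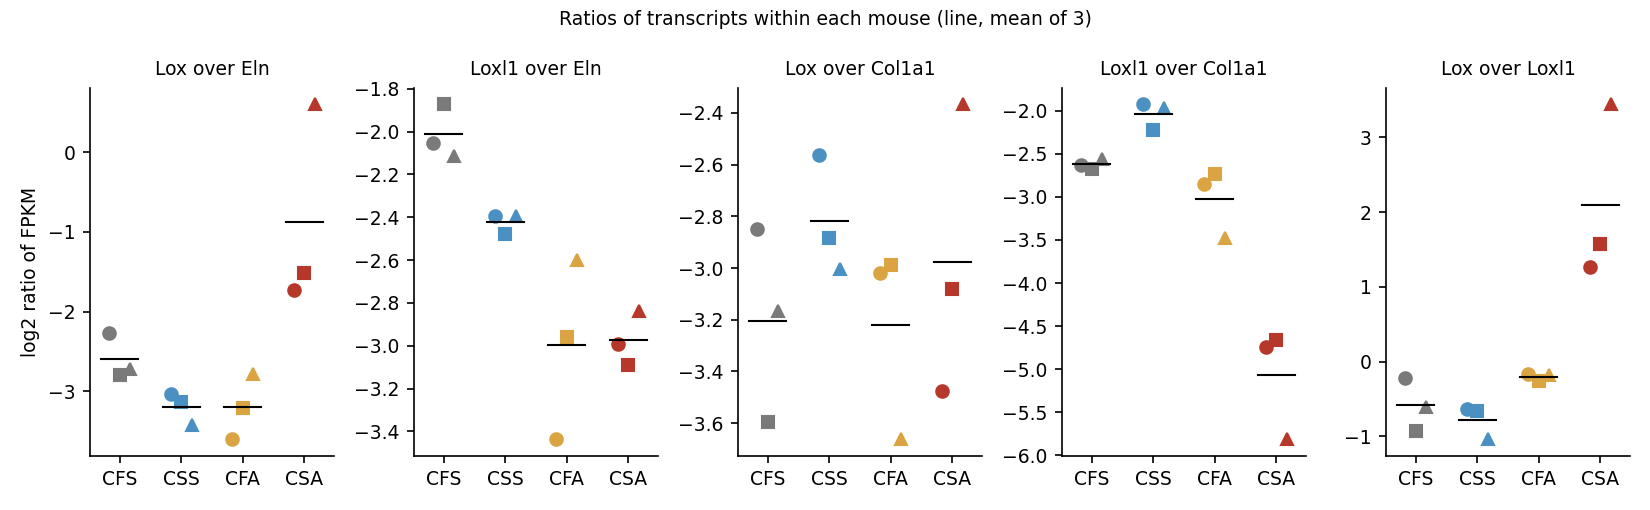
Log2 ratios of FPKM within each mouse (points; lines, mean of 3 mice) for Lox and Loxl1 over Eln and Col1a1 and for Lox over Loxl1, with a separate scale per panel. CSA stands above CFA for Lox over Eln and Lox over Loxl1 (by 2.32 and 2.29), below it for Loxl1 over Col1a1 (by 2.05 on the log2 scale), and overlaps it for Loxl1 over Eln and Lox over Col1a1.

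The other genes of the cross-linking pathway were read from lists by role, in CSA against CFA. Beside the counts stand the shares of all tested genes that were called higher (8.95%) or lower (8.27%), and that passed the adjusted p in limma and were higher (19.5%) or lower (21.2%). Of the 74 genes tested, 7 reached 1 FPKM in 3 libraries only through the CSA mice, as did 1206 of all genes tested, so their place among the higher genes follows from the filter. They were Fbn2, Col11a1, Col24a1, Tll1, Adamts3, Mt2 and Tgm1. All 7 are in the counts of genes that rose, and all but Adamts3 in those called. The 6 called ones are described by their levels, without a p, and none of the 7 had a value without CSA mouse 03. Of 18 others named from these lists, all kept direction and side of the adjusted p without mouse 03, and Eln was the 1 whose difference moved by over 1.5 times. Col5a3, named below, is not among these 18 and turned sign without mouse 03.

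Of 17 genes of the elastic fibre and its scaffold, all tested, 4 rose and 5 fell, of which 3 and 3 were called, with a median log2 difference of 0.07. Ltbp4 and Ltbp1, which tether latent TGF-β to fibrillin microfibrils, fell from 319.7 ± 73.8 to 35.8 ± 15.2 FPKM (log2 difference −3.23) and from 83.7 ± 9.65 to 15.6 ± 1.74 (−2.42). Ltbp2, which binds fibrillin but not latent TGF-β, rose from 23.1 ± 10.3 to 77.9 ± 19.4 (1.84). Fbn2, the fibrillin of embryonic microfibrils, was at 0.009 ± 0.012 in CFA and 3.21 ± 1.20 FPKM in CSA, and at most 0.022 in any mouse outside CSA. Adjusted p-values of the 3 Ltbp genes in limma ran from 7.79e-07 for Ltbp1 to 0.000817 for Ltbp2. Scaffold genes thus went in both directions, and Eln itself did not pass.

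Of 11 genes of fibrillar collagens, the substrates of Lox in the adventitia, 9 were tested, 6 rose and 0 fell past the adjusted p, 2 were called, and the median was 0.79. The lowest difference, that of Col5a3, was −0.46 and did not pass (limma adjusted p = 0.416). Its sign rested on mouse 03. All 7 genes tested without that mouse, Col5a3 among them, lay at 0.14 or higher, and all 9 lay at 0.05 or higher with the GC correction. Col1a1 rose from 1439 ± 66.6 to 2823 ± 382 FPKM (log2 difference 0.96 in limma, adjusted p = 0.000529) and Col3a1, its partner in elastic arteries, from 961 ± 50.3 to 1630 ± 202 (0.76, limma adjusted p = 0.00161). The called genes were both tested only through the CSA mice. Col11a1, a minor chain typical of cartilage, was at 0.418 ± 0.145 in CFA and 11.4 ± 2.98 in CSA, and Col24a1 at 0.033 ± 0.028 and 1.67 ± 0.264. Without CSA mouse 03, 5 of 7 tested genes rose.

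Type IV collagen chains, the substrate of Loxl2 in basement membranes, all fell. All 6 passed and 4 were called, with a median of −2.45. Col4a4 went from 11.9 ± 1.36 to 0.555 ± 0.258 FPKM (log2 difference −4.28), Col4a3 from 7.61 ± 0.911 to 0.367 ± 0.115 (−4.07), Col4a6 from 29.4 ± 4.27 to 4.33 ± 0.892 (−2.75) and Col4a5 from 84.0 ± 12.1 to 19.0 ± 3.87 (−2.15). Col4a1, the most abundant chain named here, went from 299 ± 57.4 to 164 ± 43.5 (−0.88). Limma adjusted p-values of the 5 ran from 2.43e-07 to 0.00578, and all 6 chains passed without mouse 03 as well, with a median of −2.27.

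Enzymes that cut the propeptides of collagen and of Lox, and their cofactors, were split. Of 12 listed 11 were tested, 4 rose and 5 fell, 1 and 1 were called, and the median was 0.44. It was −0.39 over the 9 genes tested without mouse 03. Those 9 leave out Tll1 and Adamts3, which rose and were tested only through the CSA mice. The medians are therefore not over the same genes, and their change of sign cannot be assigned to mouse 03. Tll1, a protease of the Bmp1 family, was at 0.314 ± 0.133 in CFA and 1.52 ± 0.658 FPKM in CSA, and reached 1 FPKM in no other mouse than the 3 of CSA. Pcolce2, which enhances the cleavage of procollagen, went from 28.8 ± 1.51 to 4.65 ± 0.731 (−2.62, limma adjusted p = 6.13e-07).

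Of 18 enzymes and chaperones that modify collagen lysines and prolines before secretion, 17 were tested, 4 rose and 3 fell, 2 and 1 were called, with a median of 0.13. Plod2, which hydroxylates the telopeptide lysines that lysyl oxidases act on, rose from 27.1 ± 1.40 to 85.1 ± 29.7 FPKM (log2 difference 1.59, limma adjusted p = 0.000251). P4ha3, a prolyl 4-hydroxylase subunit, rose from 3.56 ± 1.44 to 20.6 ± 0.466 (2.59, limma adjusted p = 0.000513), and P3h2, a prolyl 3-hydroxylase, fell from 14.0 ± 2.47 to 1.60 ± 0.149 (−3.04, limma adjusted p = 6.90e-07). Without CSA mouse 03, 8 of the list rose and 2 fell, and the difference of Plod2 was 1.32.

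Of 11 genes for uptake and delivery of copper, the cofactor of the family, 9 were tested, 6 rose, none fell and 2 were called, with a median of 0.78. Mt1, a metallothionein that binds copper and zinc, rose from 71.3 ± 31.6 to 419 ± 233 FPKM (log2 difference 2.52, limma adjusted p = 0.00092), and was 223, 358 and 677 in the CSA mice. Mt2 was listed at 0 in all 3 CFA mice and at 1.34, 2.25 and 6.66 in the CSA mice, at least 14.2-fold higher against a floor of 3 fragments per library (at least 7.46-fold without mouse 03). The list's median was 0.78 with Mt2 at that bound as well.

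Of 3 other copper amine oxidases 2 were tested, and Aoc3, the vascular adhesion protein of smooth muscle and endothelium, fell from 94.9 ± 13.7 to 14.0 ± 2.67 FPKM (log2 difference −2.75, limma adjusted p = 6.86e-07). Of 8 transglutaminases, which cross-link matrix by another chemistry, 3 were tested. Tgm2 fell from 143 ± 9.88 to 51.6 ± 15.4 (−1.52, limma adjusted p = 0.000211; −1.25 without mouse 03). Tgm1, the keratinocyte enzyme, was at 0.351 ± 0.244 in CFA and 1.91 ± 0.262 in CSA, and only the CSA mice reached 1 FPKM. Under CFA against CFS and CSS against CFS, 0 of the 74 tested genes of these 8 lists were called in limma or passed the adjusted p, and 26 and 18 had an unadjusted p under 0.05 (35.1% and 24.3%, against 9.42% and 6.3% of all genes).

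The genes most like Lox in pattern were taken over the 12 libraries among 7368 protein-coding genes with a mean of at least 5 FPKM, by the root mean square difference of their centred log2 levels. Only Lox, the member called in a comparison, was given such a search. Among the closest were Nudcd2 (0.220), Rab32, a small GTPase (0.221), and Tmem45a (0.247), where Lox itself deviated from its mean by 0.85. Nudcd2 had means of 6.41, 6.91, 9.56 and 20.7 FPKM in CFS, CSS, CFA and CSA, and Rab32 6.77, 6.48, 8.53 and 26.4. These 3 had their highest level in CSA mouse 03, as Lox did, which their choice by likeness to Lox favours. Their GC contents were 43.8%, 47.7% and 41.6%, against 43.9% for Lox. The part of the GC trend in that likeness was not tested.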

How the data were processed

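Abdominal aortas of 12 mice in 4 groups of 3 were analysed, and separate mice are the replicates. Each column of the deposited table was assigned to a mouse by the group and number in its label (0 columns unused). The authors deposited FPKM per gene and mouse, without pooling. The submitters' processing notes name HISAT2 2.0.5, StringTie 1.3.3b, featureCounts 1.5.0-p3 and mm10. Median-of-ratios factors of the FPKM were equal (1.01351) in all libraries, so the values carry a scaling between libraries that the sources used here do not describe. GENCODE M21 gave a symbol for 54409 features and a length for 54495. With those lengths at least 98.05% of values under 100 fragments were whole (tolerance 0.05), and their sum was taken as depth.

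A pseudocount of 0.1 was added before the log2 transformation, and limma 3.58.1 in R 4.3.3 (lmFit, eBayes with trend and robust, 1 coefficient per group over 12 libraries) was fitted to the 14676 genes that reached 1 FPKM in 3 or more libraries. Fold changes on that scale understate those of low genes. The Benjamini-Hochberg method was applied over all genes of a comparison. "Passed" refers to an adjusted p under 0.05, and called genes had in addition a log2 fold change beyond 1.5 in either direction. The study's own test takes counts and was not used, since the deposited unit is FPKM. Recovered fragments served for depth and for the floor of values at 0. On simulated CSA against CFA data over 13845 genes, 91 of 95 tested genes changed 4-fold and 96 of 96 changed 8-fold were called, with 2 unchanged genes called. The simulation gave every gene the same dispersion between mice, changed only genes above a floor of fragments, and held no GC trend or deviating library. These rates need not hold for the real CSA mice. Ratios were compared by two-sided exact permutation tests.

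The members and gene lists were chosen with earlier results of these data known. The text names the 5 members, Ccn2, up to 4 called genes with the largest change in each of 8 pathway lists (86 genes), the substrates Eln, Col1a1, Col3a1 and Col4a1, and the 4 genes most like a called member, of which 1 is not reported here. The alternatives were array weights, plain eBayes, only the groups compared, no fold limit, no filter or a mean of 5 FPKM, a pseudocount of 1, 2 scalings (FPKM totals, median of ratios) and leaving out each mouse. A lowess correction (span 0.3) for GC content, alone and without CSA mouse 03, was added after the data were seen. Promoters and proteins were not analysed here, and no sequence of Lox, or of Loxl1 where it is nearly the same, is printed. Tables and plots used Python 3.11.15 with pandas 2.3.3, numpy 2.4.6, scipy 1.17.1 and matplotlib 3.10.9.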

Additional observations from a re-analysis of the deposited data

Results flagged for a closer look

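One result differed between conditions by a test of the difference itself. The genotype difference of Lox under Ang II exceeded that under saline by 1.23 on the log2 scale (limma interaction, SE 0.35, adjusted p = 0.0227), with a difference of 1.21 between CSA and CFA and of −0.02 between CSS and CFS. All 3 CSA mice lay above all 3 CFA mice, whereas the saline groups overlapped. The adjusted p ran from 0.00726 to 0.0599 over the alternatives.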

How the results depend on the processing

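Leaving aside the median-of-ratios scaling, whose factors are equal in all libraries, 385 alternatives were run over 25 fold changes of members. Of these, 342 kept direction and side of the adjusted p, 29 lost and 9 gained a pass in limma, and 5 turned sign. Where no cause is named it was not tested. Between CSA and CFA, a fit of only the groups compared left Loxl1 at −1.08 (adjusted p = 0.0931) and Loxl3 at 0.55 (0.135), and no filter on low values, which tests more genes, left Loxl3 at 0.55 (0.0597). Between CSA and CSS, only the groups compared left Loxl1 at −0.88 (adjusted p = 0.0961) and Loxl3 at 0.62 (0.0635), no filter left Loxl1 at −0.88 (0.0678) and Loxl4 at 0.64 (0.0518), and Lox and Loxl2 passed in all alternatives run. In CSA against CFA, Lox passed in every alternative run (adjusted p 0.00043 to 0.0282), and leaving out a mouse at a time gave −1.36 to −0.67 for Loxl1, 0.22 to 0.73 for Loxl2, 0.42 to 0.77 for Loxl3 and 0.23 to 0.64 for Loxl4. The fold change of Lox in CSS against CFS, turned to 0.039 with FPKM totals and 0.026 with the GC correction, and ran from −0.083 to 0.072 leaving out a mouse (positive without CFS mouse 68 or CSS mouse 56). The interaction of Loxl4 ran from −0.03 (without CFA mouse 74) to 0.379 leaving out a mouse, and was 0.498 with the GC correction. The ratio of Loxl1 to Eln ranged from −0.194 (without CFA mouse 71) to 0.223, with −0.043 without CSA mouse 03, and Lox to Col1a1 from −0.058 (without CSA mouse 03) to 0.497.

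Without a fold limit, 3 members were called in CSA against CFA, 5 in CSA against CSS and 1 in the interaction. Leaving out mice gave 1 to 2 in CSA against CSS (Loxl2 joined without CSA mouse 01) and 0 to 1 in the interaction (Loxl1, without the same mouse). Over all genes, calls in CFA against CFS (4) were 10 with FPKM totals, 1 with plain eBayes, 147 with array weights, 0 with only those groups (1909 at an unadjusted p under 0.05), and 0 to 124 leaving out a mouse, the highest without CFA mouse 74. Calls in CSS against CFS (2) were 5 without a filter, 1 at a mean FPKM of 5, 4 with FPKM totals, 35 with array weights, 20 with only those groups, 1 with the GC correction and 0 to 4 leaving out a mouse. In CSA against CFA (2528) they were 1601 at a pseudocount of 1, 1095 at a mean FPKM of 5 and 5978 without a fold limit. In CSA against CSS (2977) they were 1918, 1272 and 6781, and in the interaction (2231) 1078 at a mean FPKM of 5 and 3877 without a fold limit. Loxl4 lies below a mean FPKM of 5 and has no value there, and the interaction uses all groups. No paired analysis was possible because the groups share no mouse numbers. Depth limits Loxl4 most (162 to 416 fragments).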
